A study of Mus musculus with 8 samples.

Results

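Genes that mark the gastric-like, secretory program of classical pancreatic cancer were followed in 4 mouse pancreatic ductal adenocarcinoma cell lines. They are the 10 genes Tff1, Tff2, Tff3, Agr2, Ctse, Anxa10, Cldn18, Vsig1, Tspan8 and Dmbt1, chosen by name from the 49315 gene identifiers of the expression table. All 10 were found in it, each under 1 identifier. They were chosen with earlier results of these data known. The lines, 6694c2, 2838c3, 6499c4 and 6419c5, are each represented by a wild-type (WT) library and a C1galt1c1-KO (knockout) library, 8 libraries in all and 4 of either genotype. The C1galt1c1 product, Cosmc, is needed for the folding of the core 1 O-glycan synthase, and without it cells display the short Tn O-glycan. All lines were grown in the same medium, with no treatment or time course. The labels do not say how the knockout was made or whether a KO line is 1 clone. The lines themselves are known as clones of pancreatic tumours from genetically engineered mice, so a line stands for 1 clone of 1 tumour. Because WT and KO of a line were sequenced once, no single line has a replicate to check its KO difference. The limma p-values of KO against WT rest on how far the 4 lines differ in that difference. They also rest on the other genes, since limma draws the variance of each gene toward a trend over all genes tested.

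Pancreatic ductal tumours are commonly divided into a classical type, which keeps epithelial and secretory genes, and a basal-like type, which loses them. Many classical genes belong to the surface and neck cells of the stomach, which cover the mucosa with mucin and trefoil peptides, and are switched on when pancreatic ducts undergo gastric metaplasia. Trefoil peptides are small secreted proteins held together by disulfide bonds, and Agr2 is a disulfide isomerase of the endoplasmic reticulum needed for mucin folding. Mucins and several of these membrane proteins carry O-glycans, but glycans were not measured here.

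Levels are in transcripts per 1000000 (TPM), read shares corrected for gene length, so that genes can be compared with each other. C1galt1c1 itself stood at 29.5% to 42.4% of the parental TPM in the KO libraries of the 4 lines. Epithelial keratins marked every library: the 8 ductal and epithelial markers summed to between 13359 and 24156 TPM, led by Krt8, Krt18 and Krt19, although Epcam was as low as 1.21 TPM and Cldn4 as low as 0.146 TPM. At an unadjusted limma p under 0.05 Cdh1 (E-cadherin) was lower in KO, with a relative log2 difference, defined below, of -0.27 (SE 0.16, adjusted p = 0.561). Genes of the mesenchymal state summed to between 1416 and 3408 TPM, with Vim at 1035 to 2296 TPM and Fn1 at 40.6 to 1054 TPM. Of the 6 of these tested, Snai2 alone was higher in KO at that level, by 1.21 (SE 0.34, adjusted p = 0.556), and none was lower. Vim was at 0.21 (SE 0.20), Zeb1 at 0.18 (SE 0.17), Twist1 at 0.28 (SE 0.18) and Fn1 at 0.33 (SE 0.76). Cdh2 was at -0.20 (SE 0.20). The part of these genes in the members' values was not tested. Markers of other pancreatic cells were low: the 9 acinar genes summed to at most 2.85 TPM. Of the 6 islet genes, Ins1, Ins2 and Gcg were listed at 0 throughout, but Sst stood at 3.13 to 7.39 TPM. The immune genes summed to at most 28.9 TPM, nearly all of it Cd68, with Ptprc at most 0.151 TPM. The fibroblast genes reached 8.70 TPM and the endothelial genes 4.34 TPM in sum. Identifiers without a gene name held 12.5% and 9.69% of the TPM in the KO libraries of 6694c2 and 6419c5, against 0.713% to 1.33% in the other 6 libraries. The median gene was lower in KO, by 0.15 on the log2(TPM + 1) scale. Differences between KO and WT below are given as log2(TPM + 1) relative to this median, or to the median of each line, and are called relative log2 differences. In such bulk libraries, fewer cells that make a transcript and less of it per cell cannot be told apart. The log scale understates changes of genes near 0, and p-values refer to the difference before the median is taken off.

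The 10 genes held between 0.14% and 1.67% of all TPM in a library, and they were not high in the same lines. Tff1, Tff2 and Tff3 were highest in 6694c2. Dmbt1 and Cldn18 were highest in 6499c4, and Agr2 was highest there in WT but in 6419c5 in KO. Ctse was highest in 2838c3, whereas the line means of Anxa10, Vsig1 and Tspan8 lay within 2.12-fold, 1.18-fold and 1.64-fold of each other. In the limma F-test on the line terms, which takes the WT and KO library of a line as 2 libraries of that line, 7 of the 10 genes differed between the lines at a Benjamini-Hochberg adjusted p under 0.05, where 16.9% of the 12900 genes tested did. Among the 7, Agr2 and Cldn18 reached 1 TPM in only 4 libraries, the fewest kept for the test. Both libraries of 6499c4 were among these 4, so their place in the test depended on a line where they were high. Without a filter on low values 5 of the 10 passed, where 1754 of the 27103 genes then tested did. With lines 6694c2 and 6419c5 left out 5 passed, where 944 of 12900 genes did. In KO against WT none of the 10 passed the adjusted threshold, and 0% of all genes did, with 1137 genes at an unadjusted limma p under 0.05.

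**Figure D1:**
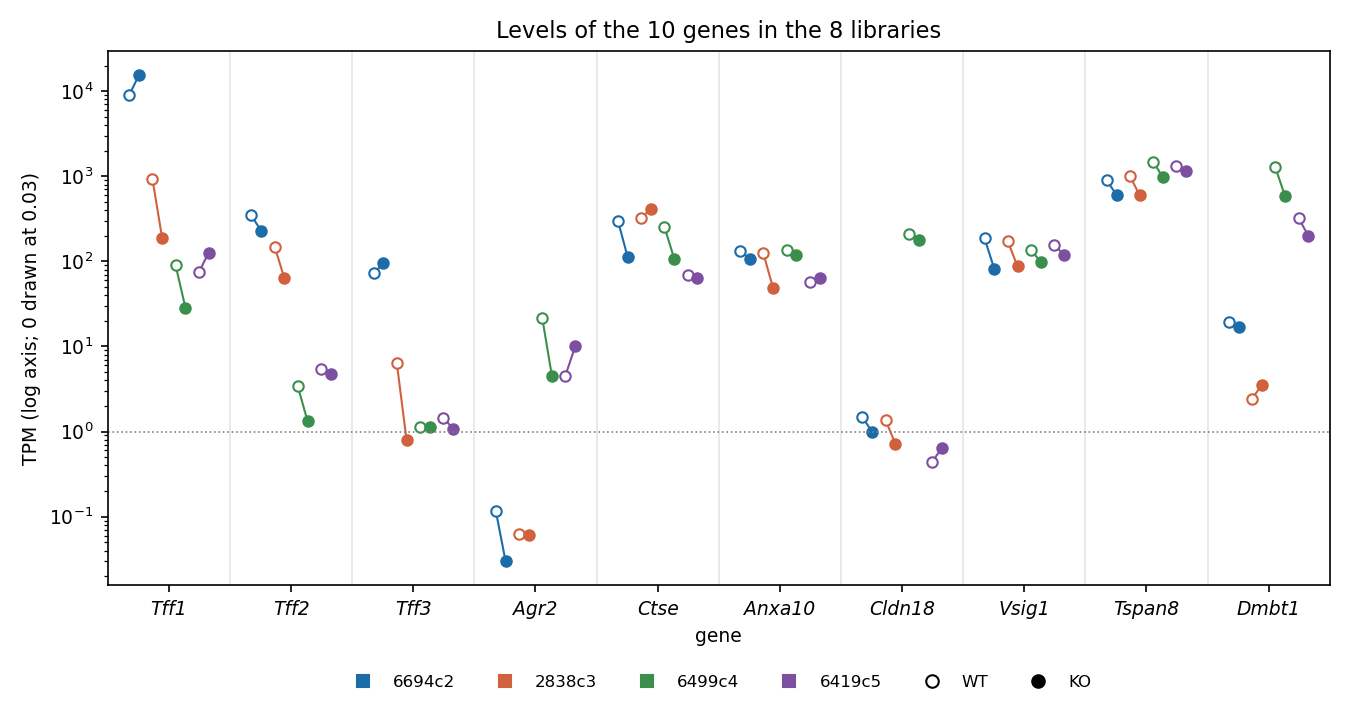
TPM of each gene (log axis) in the 4 cell lines, with open circles for the WT and filled circles for the KO library of a line, joined by a line, 1 library per point, a value of 0 drawn at 0.03 and a dotted line at 1 TPM. The trefoil genes were highest in 6694c2, Cldn18 stood above 1.48 TPM only in 6499c4, and Vsig1 and Tspan8 differed little between lines.

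The 3 trefoil genes lie together on the minus strand of chromosome 17 in GRCm39, Tff3 at 31344280 to 31348620, Tff2 at 31360023 to 31363262 and Tff1 at 31380369 to 31384251, a span of 40.0 kb that overlaps no other protein-coding gene of the annotation. Tff1 (ENSMUSG00000024032), the trefoil peptide of gastric surface cells, was among the most abundant transcripts of 6694c2, at 9003 TPM in WT and 15491 TPM in KO. Among all identifiers of a library it ranked 2 in WT and 5 in KO, and made up 0.9% and 1.55% of the TPM. In 2838c3 it stood at 935 TPM in WT and 187 TPM in KO, in 6499c4 at 90.0 and 28.6 TPM, and in 6419c5 at 74.4 and 127 TPM. The order of the lines was therefore 6694c2, then 2838c3, then 6419c5 and 6499c4, and the libraries of the last pair overlapped. The mean of the WT and KO libraries differed 207-fold between 6694c2 and 6499c4 (limma F-test, adjusted p = 0.00336). Without 6694c2 the adjusted p of Tff1 was 0.0713.

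Tff2 (ENSMUSG00000024028), the trefoil peptide of mucous neck cells and a marker of spasmolytic metaplasia, had the same 2 leading lines. Its level was 346 TPM in 6694c2 WT and 228 TPM in 6694c2 KO, and 149 and 63.6 TPM in 2838c3. It was far lower in 6499c4, at 3.39 and 1.32 TPM, and in 6419c5, at 5.47 and 4.71 TPM. No library of one line overlapped those of the next, and the line means differed 122-fold (limma F-test, adjusted p = 0.000183). Tff3 (ENSMUSG00000024029), the trefoil peptide of intestinal goblet cells, was a 6694c2 transcript at 72.2 TPM in WT and 94.8 TPM in KO. It stood at 6.39 TPM in WT and 0.794 TPM in KO of 2838c3, and between 1.08 and 1.46 TPM in the 4 libraries of 6499c4 and 6419c5. The 3 lines other than 6694c2 overlapped in Tff3, and its adjusted limma F-test p, 0.00314 with all lines, was 0.501 without 6694c2. Tff1 exceeded Tff2 in every library, but by ratios from 2.94 in the KO library of 2838c3 to 67.8 in the KO library of 6694c2.

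In the comparison of KO with WT the trefoil genes went different ways in different lines. Tff1 in KO stood at 172% and 170% of the parental TPM in 6694c2 and 6419c5, but at 20.0% in 2838c3 and 31.8% in 6499c4. The relative log2 differences were 1.01, 0.92, -2.24 and -1.51 in the same order. The limma estimate of -0.45 with an SE of 0.55 (adjusted p = 0.706) was smaller than this spread between lines. Tff1 and Agr2 were at least 2-fold higher in 1 line and at least 2-fold lower in another, relative to the median of each line. The same held for 2.59% of genes. In TPM itself, Tff1 was 2-fold higher in no line. The 2 KO libraries in which Tff1 was higher are those where unnamed identifiers took 12.5% and 9.69%. With unnamed identifiers and small RNAs removed from all libraries, the limma estimate of Tff1 was -0.44 with an SE of 0.57 (adjusted p = 0.897). The part of this RNA in the differences of single lines was not tested. In 2838c3 and 6499c4 alone the limma estimate of Tff1 was -1.86 (adjusted p = 0.611).

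Tff2 was lower in the KO library of every line, at 65.9%, 42.5%, 39.0% and 86.2% of the parental TPM in 6694c2, 2838c3, 6499c4 and 6419c5. In 6499c4 and 6419c5 the percentages rest on levels of 1.32 to 5.47 TPM, with no depth kept to judge their error. The relative log2 differences were -0.37, -1.14, -0.81 and -0.024, so that 6419c5 lay at the median of its genes. The limma estimate was -0.58 with an SE of 0.20 (adjusted p = 0.556). The WT and KO ranges overlapped, because Tff2 differed more between lines than between genotypes. Tff3 was lower in KO in 2838c3, at 12.4% of the parental TPM, and stood at 131%, 99.6% and 73.9% in 6694c2, 6499c4 and 6419c5. Outside 6694c2 the KO values of Tff3 were low, at 0.794 TPM in 2838c3, 1.12 TPM in 6499c4 and 1.08 TPM in 6419c5. The error of those percentages cannot be judged, since no depth is kept. Its limma estimate was -0.33 with an SE of 0.39 (adjusted p = 0.674), and without 2838c3 it was 0.22.

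Agr2 (ENSMUSG00000020581, chromosome 12, 36042904 to 36054086 in GRCm39) was a transcript of 2 lines. It stood at 21.8 TPM in WT and 4.45 TPM in KO of 6499c4, and at 4.55 and 10.0 TPM in 6419c5. In 6694c2 it was at 0.117 TPM in WT and listed at 0 in KO, and in 2838c3 at 0.0626 and 0.0607 TPM. These lower values lie far below 1 TPM, where the table gives no count of reads to judge their error. KO therefore went opposite ways in the 2 lines with a measurable level, at 20.4% of the parental TPM in 6499c4 and 221% in 6419c5. The limma estimate of -0.16 with an SE of 0.46 (adjusted p = 0.821) did not pass. The adjusted limma F-test p for the difference between lines was 0.0201, but Agr2 reached 1 TPM in only 4 libraries and so entered the test only through the 2 lines where it is high. Without a filter on low values the adjusted p was 0.0859.

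Dmbt1 (ENSMUSG00000047517, chromosome 7, 130633776 to 130723357), a large secreted scavenger receptor of mucosal surfaces, was high in the same 2 lines as Agr2. Its level was 1272 TPM in WT and 579.7 TPM in KO of 6499c4, and 321 and 200.4 TPM in 6419c5. In 6694c2 it was at 19.2 and 16.9 TPM, and in 2838c3 at 2.44 and 3.55 TPM. The 4 lines did not overlap, their means differed 309-fold, and the adjusted limma F-test p was 0.000258. In KO the level was 45.6% of the parental TPM in 6499c4, 62.4% in 6419c5 and 88.0% in 6694c2, but 146% in 2838c3. The limma estimate was -0.25 with an SE of 0.25 (adjusted p = 0.61), and 0.0064 without 6499c4.

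Ctse (ENSMUSG00000004552, chromosome 1, 131566009 to 131603243) encodes cathepsin E, an aspartic protease of gastric surface cells that appears early in pancreatic neoplasia. It was found in every library, at 300.1 TPM in WT and 112 TPM in KO of 6694c2, 323 and 417 TPM in 2838c3, 256 and 108 TPM in 6499c4, and 68.3 and 64.4 TPM in 6419c5. The libraries of 2838c3 lay above all others and those of 6419c5 below, while 6694c2 and 6499c4 overlapped. The line means differed 5.57-fold, with an adjusted limma F-test p of 0.0432 that was 0.13 without a filter on low values and 0.257 without 6419c5. In KO, Ctse stood at 37.2% and 42.2% of the parental TPM in 6694c2 and 6499c4, and at 129% and 94.3% in 2838c3 and 6419c5. The limma estimate was -0.45 with an SE of 0.32 (adjusted p = 0.579). It was -0.19 without 6694c2, -0.22 without 6499c4 and -0.74 without 2838c3.

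Cldn18 (ENSMUSG00000032473, chromosome 9, 99571514 to 99599320) encodes a tight junction claudin with 2 first exons, the upstream of which gives the stomach isoform and the downstream the lung isoform. It was high in 6499c4, at 208 TPM in WT and 179 TPM in KO. All other libraries lay between 0.439 and 1.48 TPM, so that the line means differed 359-fold between 6499c4 and 6419c5 (limma F-test, adjusted p = 0.00013). The mean of 6419c5 was 0.538 TPM, below 1 TPM, so the error of this ratio cannot be judged. Cldn18 reached 1 TPM in only 4 libraries, both of 6499c4 among them, and entered the test only with that line. Without 6499c4 the adjusted p was 0.458. The KO library of 6499c4 held 86.0% of the parental level, and the limma estimate of KO against WT over all lines was -0.05 with an SE of 0.18 (adjusted p = 0.695). The table gives 1 value per gene, so it does not show which isoform 6499c4 makes. The 2 start sites are shown because they are what separates the isoforms. The windows run from 250 bases before to 50 bases after each start, are taken from RefSeq on GRCm38.p6, and lie on the minus strand at chr9:99717218-99717517 for the stomach start and chr9:99710014-99710313 for the lung start. Capitals mark matches, on either strand, to the motif of the GATA factors written as GATAA, of the CDX factors as TTTATG, of the forkhead factors as TGTTTNC, of HNF4 as CAAAGTCC and of the TATA box read as TATAAA.
Cldn18, stomach start: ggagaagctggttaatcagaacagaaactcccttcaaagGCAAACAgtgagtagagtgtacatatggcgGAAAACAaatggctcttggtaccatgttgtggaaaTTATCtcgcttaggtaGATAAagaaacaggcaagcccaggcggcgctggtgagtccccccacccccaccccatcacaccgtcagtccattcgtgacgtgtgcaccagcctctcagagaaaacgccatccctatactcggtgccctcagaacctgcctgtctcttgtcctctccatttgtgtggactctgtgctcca
Cldn18, lung start: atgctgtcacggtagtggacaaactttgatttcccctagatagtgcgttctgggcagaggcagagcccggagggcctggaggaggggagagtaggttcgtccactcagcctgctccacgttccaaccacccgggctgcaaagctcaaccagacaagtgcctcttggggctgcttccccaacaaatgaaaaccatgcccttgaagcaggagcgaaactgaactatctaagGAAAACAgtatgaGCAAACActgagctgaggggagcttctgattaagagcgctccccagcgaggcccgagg

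The window of the stomach start held 2 GATA and 2 forkhead matches and that of the lung start 2 forkhead matches. Neither held a CDX, HNF4 or TATA match. Of 32851 windows of the same 300 bases in the RefSeq table, 25.4% held a GATA, 20.5% a forkhead, 11.9% a CDX, 1.42% an HNF4 and 13.6% a TATA match. A match is a description of the letters and not evidence of binding.

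Vsig1 and Tspan8 encode membrane proteins whose levels lay close together in the 4 lines, and both had less TPM in KO than in WT of every line. Vsig1 (ENSMUSG00000031430, chromosome X, 139808357 to 139840221), a junction protein of the immunoglobulin superfamily made in gastric epithelium, stood at 187, 173, 135 and 157 TPM in the WT libraries of 6694c2, 2838c3, 6499c4 and 6419c5. Its KO libraries held 81.3, 87.2, 98.7 and 120.1 TPM. Every KO library lay below every WT library, which held for Vsig1 alone among the 10 genes and for 1.34% of all genes. The mean was 163 ± 22.0 TPM in WT and 96.8 ± 17.1 TPM in KO (SD, n = 4 libraries each). The relative log2 differences were -0.96, -0.90, -0.35 and -0.23 in the same order of lines, and the limma estimate was -0.60 (SE 0.18, 95% interval -1.03 to -0.18). Its unadjusted limma p was under 0.05, but Vsig1 did not pass over all genes (adjusted p = 0.547). Between the lines its WT and KO libraries overlapped throughout (limma F-test, adjusted p = 0.849).

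Tspan8 (ENSMUSG00000034127, chromosome 10, 115652737 to 115685798), a tetraspanin of epithelial surfaces and exosomes, was the most abundant of the 10 genes outside 6694c2. Its WT libraries held 896, 1005, 1481 and 1310.3 TPM and its KO libraries 605, 595, 973 and 1152 TPM, in the order 6694c2, 2838c3, 6499c4 and 6419c5. The KO library was lower in each line, but the ranges overlapped, since 6499c4 and 6419c5 in KO exceeded 6694c2 in WT. The mean was 1173 ± 269.997 TPM in WT and 831 ± 277 TPM in KO (SD, n = 4 libraries each). The limma estimate was -0.38 with an SE of 0.16 (adjusted p = 0.556). In 6419c5 the relative log2 difference was -0.03, at the median of that line. The promoter windows of Vsig1 and Tspan8, the genes lower in KO in all lines for which RefSeq gives one, lie on the plus strand of GRCm38.p6 at chrX:140907358-140907657 and chr10:115817034-115817333.
Vsig1: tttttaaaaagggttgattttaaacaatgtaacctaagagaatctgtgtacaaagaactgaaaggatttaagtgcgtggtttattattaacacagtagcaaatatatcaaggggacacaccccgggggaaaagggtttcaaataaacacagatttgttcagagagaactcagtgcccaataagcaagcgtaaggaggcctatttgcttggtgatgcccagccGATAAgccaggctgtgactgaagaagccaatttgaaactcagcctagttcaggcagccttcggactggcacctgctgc
Tspan8: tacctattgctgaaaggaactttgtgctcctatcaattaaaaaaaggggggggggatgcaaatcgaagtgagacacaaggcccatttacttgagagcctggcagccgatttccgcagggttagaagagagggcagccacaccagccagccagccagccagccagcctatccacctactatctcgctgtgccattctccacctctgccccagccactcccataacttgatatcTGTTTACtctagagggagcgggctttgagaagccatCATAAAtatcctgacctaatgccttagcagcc

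With the same motifs in capitals, the Vsig1 window held 1 GATA match and the Tspan8 window 1 forkhead and 1 CDX match, so they shared none of the motifs searched. Windows were found for 5 of the 10 genes, these 2 and Cldn18, Agr2 and Anxa10.

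Anxa10 (ENSMUSG00000031635, chromosome 8, 62510076 to 62576184), an annexin of gastric mucosa, stood at 134, 124, 136 and 56.9 TPM in the WT libraries of 6694c2, 2838c3, 6499c4 and 6419c5. The KO libraries held 106, 48.2, 120.2 and 64.5 TPM. The 2838c3 pair stood apart, with KO at 38.9% of the parental TPM, against 79.1%, 88.1% and 113% in 6694c2, 6499c4 and 6419c5. The limma estimate was -0.27 with an SE of 0.25 (adjusted p = 0.594), and 0.06 without 2838c3. The adjusted limma F-test p between lines was 0.146, and 0.0179 without 2838c3.

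Over the 10 genes, the limma estimate of KO against WT was below the median of all genes for each one, with a median of -0.35 beside 0 for all genes by construction. This count was 6 without 2838c3, 8 without 6499c4 and 10 without both 6694c2 and 6419c5. At an unadjusted limma p under 0.05, 3 of the 10 were lower, Vsig1, Tff2 and Tspan8, where 8.81% of all genes passed, 7.95% lower and 0.86% higher. With libraries scaled to their median ratio, Vsig1 and Tff2 passed at that level and Tspan8 did not, and the genes of the whole table split into 297 higher and 349 lower in place of 111 and 1026. The same 3 genes, Tff2, Vsig1 and Tspan8, were the ones lower relative to the median in all 4 lines, as were 6.79% of all genes, and the ones with less TPM in KO in all 4 lines, as were 18.5%.

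Within single lines, KO was at least 2-fold lower relative to the median for 4 of the 10 in 2838c3 (Tff1, Tff2, Tff3 and Anxa10), where 6.47% of genes were, and 2-fold higher for none (5.89% of genes). In 6499c4 it was so for 4 (Tff1, Agr2, Ctse and Dmbt1), where 1.26% of genes were, and 2-fold higher for none (1.12%). Among these genes, Agr2 was kept for the test only through 6499c4 and 6419c5, the lines where it is high. Tff3 stood at 0.794 TPM in KO of 2838c3, a level whose error cannot be judged. In 6694c2 Ctse alone was 2-fold lower (3.17% of genes) and Tff1 alone 2-fold higher (2.79%). In 6419c5 none was 2-fold lower (1.44%) and Agr2 was 2-fold higher (2.09%). Tff1 was the gene found in both groups of 4. The medians of the 10 genes were -0.10, -0.79, -0.66 and 0.02 in 6694c2, 2838c3, 6499c4 and 6419c5.

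**Figure D2:**
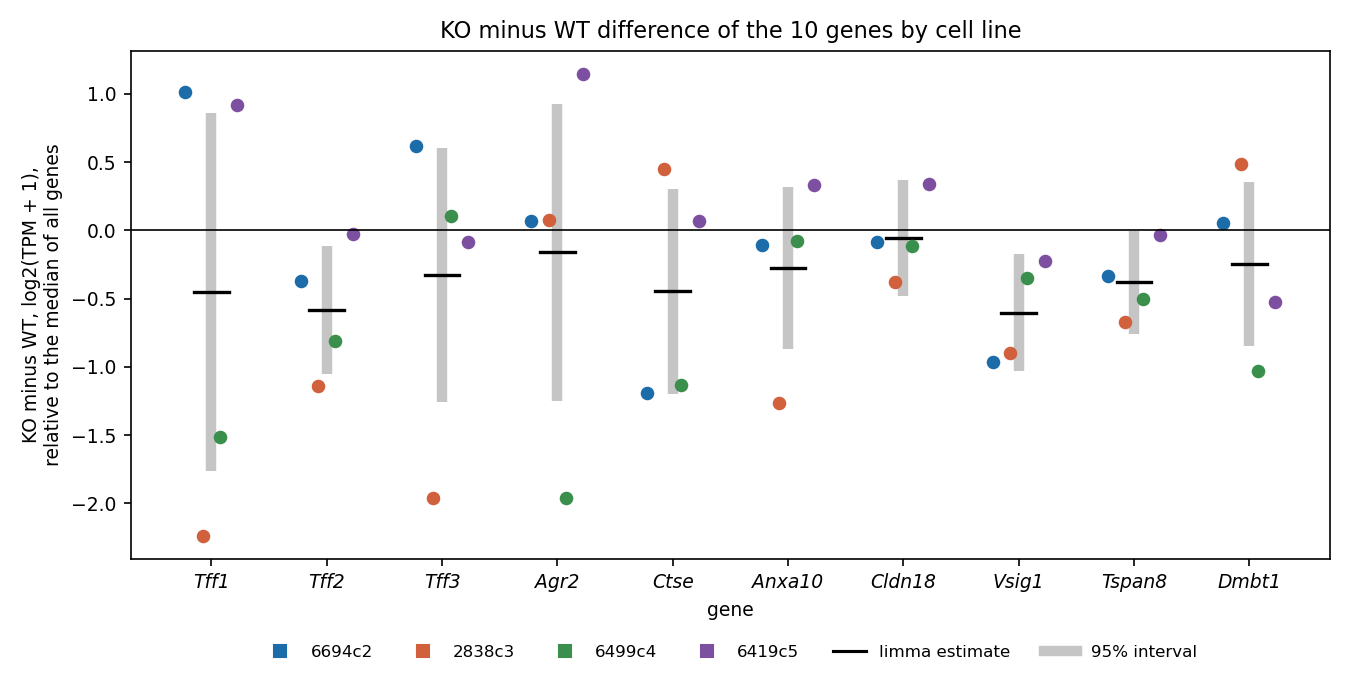
KO minus WT difference of each gene in log2(TPM + 1), relative to the median of all genes, with 1 point per cell line, the limma estimate over the 4 lines (black bar) and its 95% interval (grey). The points of Vsig1, Tff2 and Tspan8 all lie below 0, whereas those of Tff1 span -2.24 to 1.01.

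**Figure D3:**
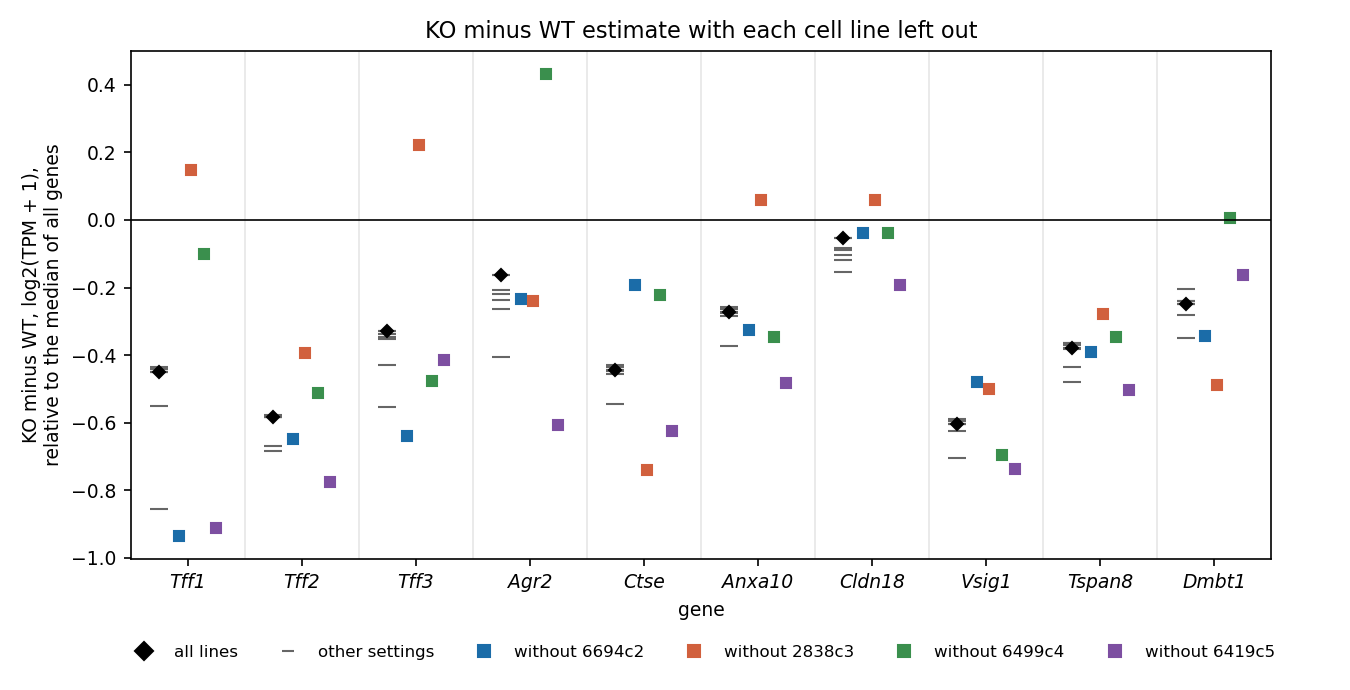
The limma estimate of KO minus WT for each gene with all lines (diamond), with each cell line left out (squares) and with other scalings, filters and models (dashes), in relative log2 units. Leaving out 2838c3 moves Tff1, Tff3, Anxa10 and Cldn18 above 0, and leaving out 6499c4 does so for Agr2 and Dmbt1, while Vsig1, Tff2, Tspan8 and Ctse stay below 0.

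Other genes of the same programs were read from fixed lists, none of which had a gene past the adjusted threshold in KO against WT (0% of all genes). Their counts stand beside the shares over all genes, which were 7.95% lower and 0.86% higher at an unadjusted limma p under 0.05, and 16.9% different between lines at the adjusted threshold. Of 26 other classical-subtype genes 15 were tested, with 10 below and 5 above the median (median -0.20), and 8 were under 1 TPM in every library. At an unadjusted limma p under 0.05, 4 of the 15 were lower, among them Prr15l at -0.67 (SE 0.21) and the epithelial transcription factor Elf3 at -0.37 (SE 0.13). The most abundant were Lgals4, a galectin of the gut lining, at 0.18 (SE 0.16), and Gprc5a at 0.08 (SE 0.14). Lgals4 ranged from 90.9 TPM in 2838c3 to 1909.9 TPM in 6499c4 (limma F-test, adjusted p = 0.000384), whereas Gprc5a stood between 355 and 502 TPM in all libraries. Between lines 8 of the 15 differed at the adjusted threshold.

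Of 11 other genes of gastric surface and neck cells in the table, 6 were tested, with 5 below and 1 above the median (median -0.17), and 5 of the 6 differed between lines. Aqp5, a water channel, reached 842 TPM in WT and 593 TPM in KO of 6499c4 but 6.59 and 12.3 TPM in 2838c3. Sult1c2, a sulfotransferase, was at -0.64 with an SE of 0.26 (adjusted p = 0.556) in KO against WT. The gastrokine Gkn1, secreted by stomach surface cells, was at 12.0 and 12.5 TPM in 6419c5 and listed at 0 in both libraries of 6499c4, and Gkn2 followed it with 46.3 and 51.4 TPM and 0. In WT and KO of 2838c3, Gkn1 was at 3.62 and 1.00 TPM and Gkn2 at 22.9 and 4.47 TPM. In 6694c2 the values were 0.668 and 0.566 TPM for Gkn1 and 5.30 and 9.09 TPM for Gkn2. The gastric mucin Muc5ac was highest in 6694c2, the line with the most Tff1, at 33.0 TPM in WT and 23.9 TPM in KO, and at most 4.09 TPM elsewhere. Gkn2 and Muc5ac were picked with their values in view. Of 8 chief and parietal cell genes 1 was tested, the proton pump subunit Atp4a at 1.34 to 7.56 TPM, and 6 were under 1 TPM in every library.

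Of 10 intestinal genes 7 were tested, with 4 below and 3 above the median (median -0.38) and 4 different between lines. Lgals2 stood between 1116 and 4991 TPM, Krt20 between 70.3 and 575 TPM, and Vil1, an actin bundler of microvilli, was at -0.47 (SE 0.24, adjusted p = 0.561). Cdx2, the intestinal homeobox factor, was at 127 and 114 TPM in WT and KO of 6499c4 and 245 and 163 TPM in 6419c5, but at 14.7 and 12.8 TPM in 6694c2 and 1.86 and 5.65 TPM in 2838c3. Cdx2 was picked with its values in view, and other genes of this list were ordered otherwise. Krt20 was highest in 2838c3, at 575 and 484 TPM, and lowest in 6499c4, at 99.0 and 70.3 TPM. Lgals2 in WT was highest in 2838c3, at 4460.3 TPM. Of 11 secretory lineage and protein folding genes 10 were tested, with 2 below and 8 above the median (median 0.19), and Spdef, a factor of goblet cell fate picked with its values in view, was at or below 0.236 TPM in every library. The disulfide isomerases Pdia3 and Pdia6 were at -0.0041 (SE 0.19) and 0.25 (SE 0.20), the transcription factor Creb3l4 at -0.06 (SE 0.18) and Selenom at 0.34 (SE 0.17). Of 20 basal-like genes 8 were tested, with 4 on either side of the median. At an unadjusted limma p under 0.05, Areg, an EGF receptor ligand, was higher at 1.41 (SE 0.28, adjusted p = 0.542) and Scel lower at -0.37 (SE 0.19, adjusted p = 0.561). The abundant basal-like genes Krt7 and Anxa8 were at -0.05 (SE 0.19) and -0.17 (SE 0.23), and 10 of the 20 were under 1 TPM in every library.

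**Figure D4:**
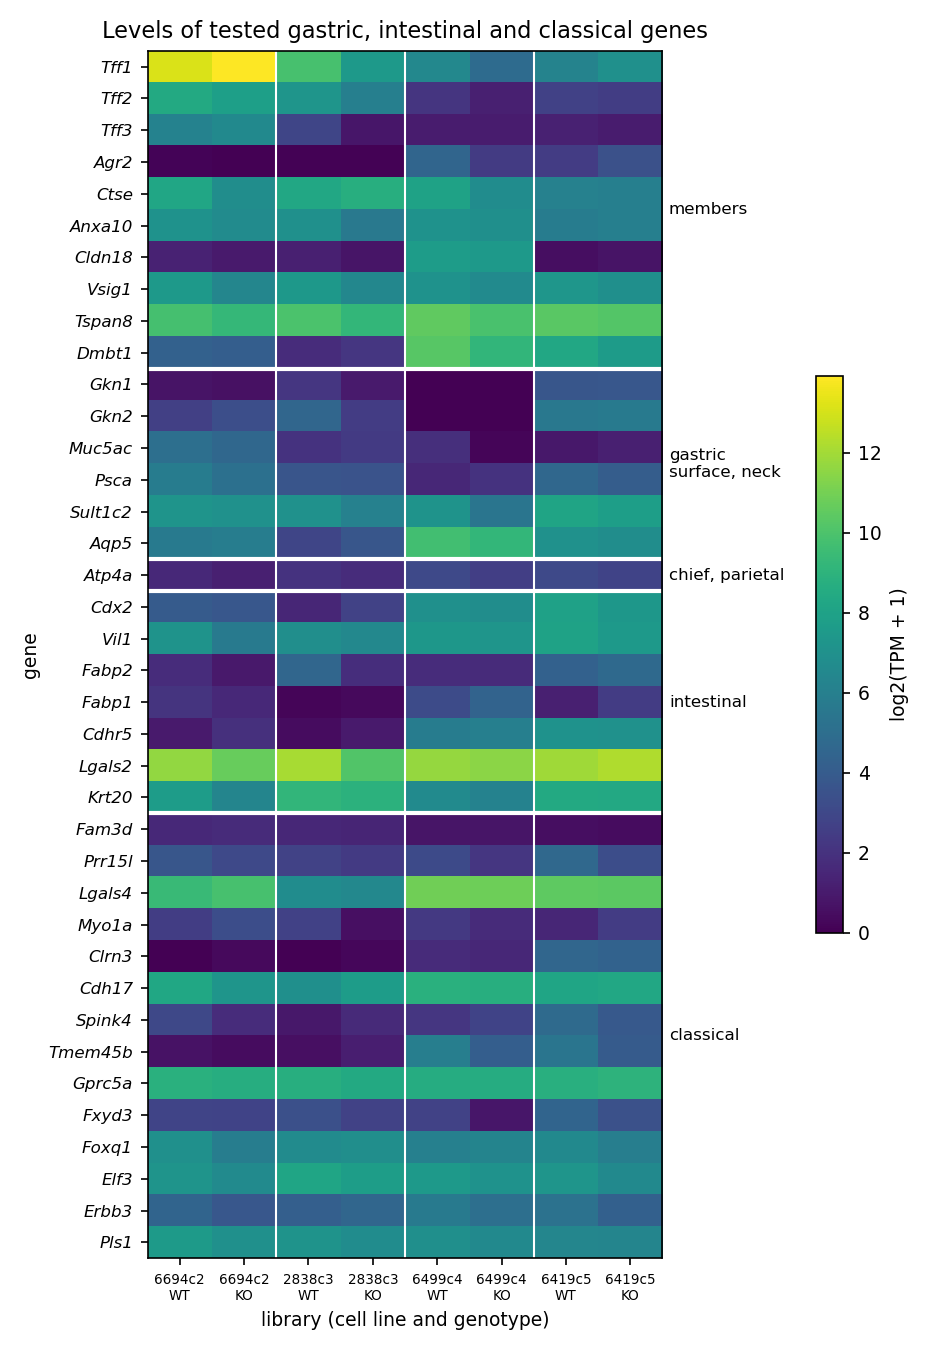
Heat map of log2(TPM + 1) for the 10 genes and 28 other tested gastric, intestinal and classical-subtype genes (rows) in the 8 libraries (columns, WT and KO of each line side by side). The order of the lines differs from gene to gene: Cdx2 and Dmbt1 are high in 6499c4 and 6419c5, Krt20 is highest in 2838c3, and Gkn1 and Gkn2 are highest in 6419c5 and at 0 in 6499c4.

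The genes whose log2(TPM + 1) was most like that of a member were found by Pearson's r over the 8 libraries, which come from 4 lines and so are not independent. For Tff2 this was Bcas1 (r = 0.99), for Tff1 Sfmbt1 (r = 0.98) and for Tff3 the glutathione transferase Gsta2 (r = 0.99). For Agr2 it was the membrane mucin Muc3a (r = 0.98), for Dmbt1 the cornified envelope gene Ivl (r = 0.99) and for Cldn18 Hpcal4 (r = 0.99). For Ctse it was Chml (r = 0.97), for Anxa10 Ptpmt1 (r = 0.99), for Tspan8 Pigg (r = 0.97) and for Vsig1 Ift70a1 (r = 0.96). None of the 10 genes was among the 3 most like any other of them. With 12900 genes and 8 libraries, high values are found for any pattern, and they are given as a description.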

How the data were processed

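Polyadenylated RNA was sequenced as paired ends, per the labels' protocols. The authors deposited 1 table of TPM values for 49315 Ensembl gene identifiers and 8 libraries, each of which sums to 1000000 TPM, so that no depth is kept and counting error cannot be given. The submitters' processing notes list the mm39 build and DESeq2 2.11.40.8, featureCounts 2.1.1, STAR 2.7.11b and cutadapt 5.1, with no roles. The annotation and gene lengths behind the TPM are not given in the sources used here. Names and positions came from GENCODE vM39 on GRCm39, which matched 45505 identifiers, and promoter sequences from the RefSeq table on GRCm38.p6.

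Genes with at least 1 TPM in at least 4 libraries were kept (12900). On log2(TPM + 1), a linear model with a genotype term and a line term was run in limma 3.58.1 (R 4.3.3), with the trend option, after a check on simulated data. Benjamini-Hochberg adjustment covered all genes kept. The line pairs the WT and KO libraries, whose deviations from the group means correlated within each line, with r of 0.66 for 6694c2, 0.42 for 2838c3, 0.79 for 6499c4 and 0.75 for 6419c5. All members are named, and from each list of other gastric, intestinal, secretory and subtype genes the 2 most abundant tested genes and the 2 with the smallest unadjusted p. Cell type and state markers are outside this rule. The members and lists were chosen with earlier results of these data known. Alternatives were another pseudocount, filters, scalings, variance models, no line block and lines left out. Muc6 was not analysed here. Tables and figures were made with Python 3.11.15, pandas 2.3.3, numpy 2.4.6 and matplotlib 3.10.9.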

Additional observations from a re-analysis of the deposited data

Results flagged for a closer look

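In groups of 4 libraries of 1 genotype, 8 of 20 looked at had 1 library far from the other 3. The rule is set to flag about 1 in 20 groups of replicates with normally spread values. TPM values of 4 different lines are not such replicates, so that rate is no measure of chance here. The WT and KO groups hold the same 4 lines and the genes were measured in the same libraries, so the 20 groups are not independent, and the share over all genes was not computed. Tff1 was at 9003 TPM in WT and 15491 TPM in KO of 6694c2, and Tff3 at 72.2 TPM in WT and 94.8 TPM in KO of the same line. Cldn18 was at 208 TPM in WT and 179 TPM in KO of 6499c4. These 3 genes stood apart in WT and KO of the same line alike. Ctse at 417 TPM in KO of 2838c3 and Anxa10 at 56.9 TPM in WT of 6419c5 stood apart in 1 genotype. Relative to the median of each line, the KO minus WT difference went opposite ways by at least 2-fold for 2 genes. In relative log2 units this was 1.01 in 6694c2 against -2.24 in 2838c3 for Tff1, and 1.15 in 6419c5 against -1.96 in 6499c4 for Agr2. With 1 library per genotype and line these differences between lines were not tested.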

How the results depend on the processing

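The count of genes past the adjusted limma threshold in KO against WT was 0 under each alternative run. The number of genes that differed between lines was 2178, with a range of 871 without 6499c4 to 3708 without 2838c3 when a line was left out, 903 without 6419c5 and 944 without lines 6694c2 and 6419c5 together. Of the 10 genes, 7 differed between lines, 5 to 8 with a line left out, and 4 of 7 tested with a minimum of 5 TPM. With that minimum, 1615 of the 9920 genes tested differed between lines. The count of members below the median in KO against WT was 10, and 6 to 10 with a line left out. Direction turned for 6 members when a line was left out: estimates ranged from -0.93 to 0.15 for Tff1, -0.64 to 0.22 for Tff3, -0.61 to 0.43 for Agr2, -0.48 to 0.0605 for Anxa10, -0.19 to 0.0577 for Cldn18 and -0.49 to 0.0064 for Dmbt1. It did not turn for the others, at -0.74 to -0.19 for Ctse, -0.77 to -0.39 for Tff2, -0.74 to -0.48 for Vsig1 and -0.50 to -0.28 for Tspan8. Other scalings, filters and models turned none of the members they tested, which were 7 with a minimum of 5 TPM. Without the line block 1 of the 10 genes, Vsig1, had an unadjusted limma p under 0.05 in place of 3, and 210 of all genes in place of 1137. The Ctse difference between lines lay at the threshold, with an adjusted limma p of 0.052 without a variance trend and 0.0516 without genotype as a term. Levels far below 1 TPM, as for Agr2 in 6694c2 and 2838c3, could not be compared, since the table keeps no depth.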
